A study of Mus musculus with 6 samples.

Results

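The 8 genes described here are the 7 mouse genes for inhibitors of cyclin-dependent kinases (CDKs) and Rb1, the gene of the retinoblastoma protein RB. They were picked by symbol from a table of 55401 genes, and all 8 were among the 16773 genes with an adjusted p-value, called tested genes below. RNA sequencing compared immortalised mouse embryo fibroblasts (iMEF), 24 h after addition of the PROTAC dTAG-13, with the same cells left untreated. dTAG-13 directs proteins that carry an FKBP12F36V tag to the proteasome, and the tagged protein here was ASH2L, a core subunit of the KMT2 complexes that methylate lysine 4 of histone H3. The cells came from mice with floxed Ash2l alleles and a CAGG-Cre-ER transgene, a recombinase that hydroxytamoxifen activates and a broadly active hybrid promoter drives. Both groups shared the same background: a lentivirus supplied human ASH2L as an FKBP-HA2-ASH2L fusion, exon 4 of the endogenous Ash2l had been deleted, and single clones had been isolated. The titles call the untreated cells WT, although they carried the same deletion and transgene as the treated cells. The legend of the experiment names a single clone, NG3.

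The labels list 3 untreated libraries and 3 libraries with dTAG-13 for 24 h, while the legend gives fewer replicates and the deposited means of weakly expressed genes were sums of 5 distinct values of 1 read. Nothing in the labels says that the libraries came from separate cultures, so p-values measure only the spread between these libraries, which may be technical. No library of cells without the tag but with the compound is listed, so effects of dTAG-13 itself and of ASH2L loss cannot be told apart. The table holds 1 row per gene with no value per library, so values of single libraries cannot be shown and the depth of each library is unknown. Each row gives a mean normalized count that pools both groups, the log2 fold change between them (positive means higher with dTAG-13), its standard error (SE) and the p-values of DESeq2. A gene is said to have risen or fallen when its adjusted p was under 0.05. Of the 13 fibroblast markers, 10 had a mean normalized count of at least 100, and of 30 markers of 6 other cell types 14 were at 0 and the highest mean was 72.1. Of the fibroblast markers 2 rose and 5 fell, and of the 10 tested other markers 1 rose (Tek, an endothelial gene named after its value was seen, with a mean of 17.5 and a log2 fold change of 1.93 ± 0.65). Of all genes with an adjusted p, 7.45% rose and 12.5% fell, and neither marker set was tested against these shares. The part of the markers in the results was not tested.

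CDK inhibitors fall into a pair of families. INK4 proteins bind CDK4 and CDK6 and keep D-type cyclins from activating them, whereas CIP/KIP proteins bind assembled cyclin-CDK complexes, above all those of CDK2. Active CDKs phosphorylate RB, which otherwise holds E2F transcription factors at promoters and keeps genes for S phase silent. In cultured mouse fibroblasts the Cdkn2a and Cdkn2b locus is known as a brake on long-term growth that Polycomb proteins silence in young cells.

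Of the 8 genes, 2 rose after dTAG-13, Cdkn2b and Rb1, each to somewhat over double its untreated level. Of all tested genes, 7.45% rose and 12.5% fell, together 19.9%. None of the 8 genes fell, and by DESeq2 0 of them had an unadjusted p under 0.05 with a lower level. The other 6 genes did not pass the test in either direction, and none of these 6 had an unadjusted p under 0.05. The median log2 fold change was 0.28 over the 8 genes and -0.02 over all tested genes. By family, 1 of the 4 INK4 genes rose and 0 of the 3 CIP/KIP genes, with medians of 0.28 and 0.11. In a bulk culture, a higher level per cell and more cells of a state that expresses the gene cannot be told apart.

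**Figure D1:**
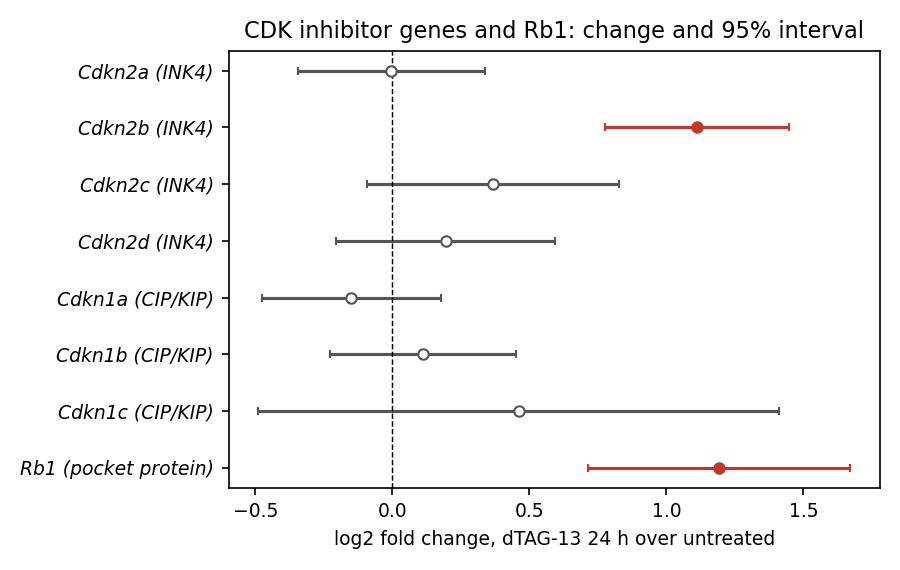
Change in RNA level at 24 h of dTAG-13 relative to untreated cells, as log2 fold change, for the 4 INK4 genes, the 3 CIP/KIP genes and Rb1, on the horizontal axis, with bars for the 95% interval from the deposited standard error. Filled red points passed an adjusted p under 0.05 and open points did not. The intervals of Cdkn2b (0.78 to 1.45) and Rb1 (0.71 to 1.67) lie above 0, while those of the other 6 genes include it.

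Cdkn2b and Cdkn2a lie next to each other on the same strand, and the sequences at their starts are shown because 1 gene of this pair rose and the other did not. They are RefSeq windows of 300 bases on GRCm38.p6, from 250 bases before an annotated start to 50 after it, read 5′ to 3′ along the minus strand. Capitals mark the GC box GGGCGG, the letters read by Sp1 and its relatives, and the cAMP response element (CRE) TGACGTCA, each searched on both strands. The first window is that of Cdkn2b, chr4:89310983-89311282. The second starts the ARF transcript of Cdkn2a at chr4:89294570-89294869, and the third starts the INK4A transcript at chr4:89282143-89282442.
Cdkn2b: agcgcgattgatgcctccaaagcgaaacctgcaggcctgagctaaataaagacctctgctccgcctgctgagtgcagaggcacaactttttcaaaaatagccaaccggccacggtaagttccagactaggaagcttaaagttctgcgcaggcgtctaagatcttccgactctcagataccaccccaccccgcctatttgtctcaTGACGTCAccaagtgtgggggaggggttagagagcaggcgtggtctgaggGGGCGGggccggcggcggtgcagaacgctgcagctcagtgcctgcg
Cdkn2a, ARF start: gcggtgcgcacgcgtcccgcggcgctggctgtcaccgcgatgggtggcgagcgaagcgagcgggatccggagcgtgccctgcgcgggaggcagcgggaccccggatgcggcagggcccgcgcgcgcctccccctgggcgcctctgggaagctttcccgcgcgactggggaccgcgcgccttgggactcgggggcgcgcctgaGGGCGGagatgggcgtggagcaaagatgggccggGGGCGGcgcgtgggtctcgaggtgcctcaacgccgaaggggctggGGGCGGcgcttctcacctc
Cdkn2a, INK4A start: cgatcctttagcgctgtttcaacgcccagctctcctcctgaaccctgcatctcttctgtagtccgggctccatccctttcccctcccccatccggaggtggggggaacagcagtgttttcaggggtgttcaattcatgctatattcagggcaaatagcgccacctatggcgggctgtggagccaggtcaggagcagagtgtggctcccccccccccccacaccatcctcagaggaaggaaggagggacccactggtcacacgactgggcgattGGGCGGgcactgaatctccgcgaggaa
The Cdkn2b window held 1 CRE at position -46 and 1 GC box at position 4, counted from 0 at the annotated start. Over 32851 windows of the same length, 1.79% held the CRE letters and 35.7% held a GC box. Neither Cdkn2a window held the CRE letters, while the ARF window held 3 GC boxes and the INK4A window held 1. The 3 windows also differed in CpG dinucleotides, with 18 at Cdkn2b, 45 at the ARF start and 12 at the INK4A start, against a median of 7 over all windows. The INK4A window held in addition the E2F letters TTTNGCGC, found in 1.38% of windows, at position -244. None of the 3 windows held the SMAD box GTCTAGAC (0.213% of windows) or TATAAA (13.6%), which says only that these letters are not in these bases. Of the 8 genes, 6 had such windows, 9 in all, and the CRE letters appeared in that of Cdkn2b alone. Rb1, which also rose, and Cdkn1c had no window and were not searched. These matches describe the letters and show no binding.

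Cdkn2b (ENSMUSG00000073802.5, minus strand of chr4:89306299-89311039 on GRCm38) encodes p15INK4B, an inhibitor of CDK4 and CDK6 known as a target of TGF-beta signalling and of repression by MYC. Its mean normalized count over both groups was 1372. The pooled mean and the deposited fold together give a normalized count of 808 to 937 in untreated cells and of 1747 to 2024 with dTAG-13, the ranges covering groups of 3 and 3, 2 and 3 or 3 and 2 libraries. Its log2 fold change was 1.11 ± 0.17 (SE), a rise of 2.16-fold with a 95% interval of 1.71 to 2.73. The adjusted p was 4.7e-10 by DESeq2, and 97.4% of tested genes had a lower log2 fold change. Under the 5 alternative settings tried, the adjusted p of Cdkn2b ranged from 3.1e-13 to 3.5e-09. Both moved zero points among them lay below 0, which raises every log2 fold change, so they did not put the rise to a test.

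Cdkn2a (ENSMUSG00000044303.6, minus strand of chr4:89274471-89294653) encodes p16INK4A, the relative of p15INK4B, and from an alternative first exon p19ARF, which binds MDM2 and so stabilises p53. The gene had a mean normalized count of 4679, with both transcripts in 1 row, so that p16INK4A and p19ARF cannot be told apart. From untreated cells to dTAG-13 its level was 4684 to 4686 against 4673 to 4675, a fold of 0.998 with a 95% interval of 0.787 to 1.27. Its log2 fold change of 0.00 ± 0.17 had an adjusted p of 0.99. The log2 fold change of Cdkn2b exceeded that of Cdkn2a by 1.11 ± 0.24, with a 95% interval of 0.64 to 1.59 when both estimates are taken as independent. The start of Cdkn2b lies 16.39 kb upstream of that of the ARF transcript, with 11.65 kb between the gene bodies.

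The remaining INK4 genes did not pass the test. Cdkn2c (ENSMUSG00000028551.14, minus strand of chr4:109660876-109667189), the gene of p18INK4C, had a mean normalized count of 161, and its level was 138 to 145 in untreated cells and 177 to 186 with dTAG-13. Its log2 fold change was 0.37 ± 0.23 (95% interval -0.09 to 0.83, adjusted p = 0.21). Cdkn2c was the only one of the 8 genes whose call moved with a setting, since it passed (0.55, adjusted p = 0.043) when log2 fold changes were counted from the median of 15 housekeeping genes, which was -0.18. Cdkn2d (ENSMUSG00000096472.2, minus strand of chr9:21288410-21291407), the gene of p19INK4D, had a mean normalized count of 186. Its log2 fold change was 0.19 ± 0.20, with an interval of -0.20 to 0.59 and an adjusted p of 0.53. Both estimates lay above 0 and both intervals included it. The log2 fold change of Cdkn2b exceeded that of Cdkn2c by 0.75 (0.18 to 1.31) and that of Cdkn2d by 0.92 (0.40 to 1.44). Cdkn2b is the only called inhibitor gene, and these intervals make no allowance for that choice.

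The CIP/KIP genes showed no called change. Cdkn1a (ENSMUSG00000023067.14, plus strand of chr17:29090976-29100727) encodes p21CIP1, the best known p53 target among the inhibitors. It had a mean normalized count of 2281, with 2374 to 2424 in untreated cells and 2141 to 2186 with dTAG-13. The log2 fold change was -0.15 ± 0.17, a fold of 0.902 with a 95% interval of 0.719 to 1.13, and the adjusted p was 0.58. Its sign turned when the housekeeping median was taken as zero (0.03), and it was not called there either. A doubling of Cdkn1a, such as that of Cdkn2b, lies outside this interval, and the log2 fold change of Cdkn2b was higher by 1.26 (0.79 to 1.73).

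Cdkn1b (ENSMUSG00000003031.14, plus strand of chr6:134920401-134925513) encodes p27KIP1, which accumulates in quiescent cells mainly through slower breakdown of the protein. The mean normalized count was 783, and the level was 747 to 758 in untreated cells and 807 to 820 with dTAG-13. Its log2 fold change was 0.11 ± 0.17 (95% interval -0.23 to 0.45, adjusted p = 0.71). Cdkn1c (ENSMUSG00000037664.13, minus strand of chr7:143458339-143461050), the imprinted gene of p57KIP2, was weakly expressed, with a mean normalized count of 17.8. Its log2 fold change was 0.46 ± 0.49, the widest error of the 8 genes, so that the interval ran from -0.49 to 1.41 and includes a doubling. The adjusted p of Cdkn1c was 0.26. Of the 2039 exonic bases of Cdkn1c, 30.7% overlap Gm44732 on the opposite strand, which was listed at 0.

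**Figure D2:**
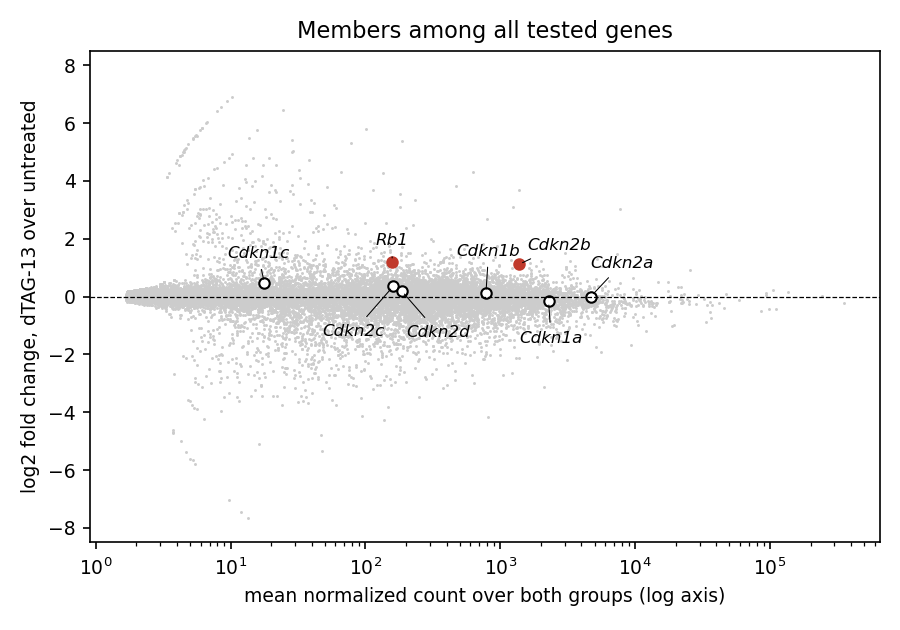
Change at 24 h of dTAG-13 relative to untreated cells, as log2 fold change, against the mean normalized count over both groups (log axis) for the 16773 tested genes in grey, with the 8 genes marked, filled red where they rose and open where they did not pass the test. Cdkn2b (mean 1372) and Rb1 (mean 158) lie at 1.11 and 1.19, where 97.4% and 97.7% of tested genes had a lower log2 fold change, and Cdkn1a and Cdkn2a lie near 0.

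Rb1 (ENSMUSG00000022105.6, minus strand of chr14:73183673-73325822) encodes the pocket protein on which the INK4 pathway acts. Its mean normalized count was 158, and the level was 89.2 to 104 in untreated cells and 204 to 239 with dTAG-13. The log2 fold change was 1.19 ± 0.24, a rise of 2.29-fold with a 95% interval of 1.64 to 3.18, and the adjusted p was 2.7e-06. Over the 5 alternative settings the adjusted p ranged from 5.7e-08 to 2.3e-05. Of the 6015 exonic bases of Rb1, 8.11% overlap exons of Rcbtb2 and 6.78% overlap exons of Lpar6, both on the opposite strand. The kit is a stranded one for total RNA in the labels but one for 3′ ends of mRNA in the methods, so whether strand was used in counting is uncertain and the value of Rb1 shares that uncertainty. Rcbtb2 fell by 0.61 ± 0.19 on the log2 scale (adjusted p = 0.0036) and Lpar6 had a log2 fold change of 0.13 ± 0.22 (adjusted p = 0.74). How reads in the shared exons bear on the value of Rb1 was not tested.

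RB has a pair of relatives, p107 (Rbl1) and p130 (Rbl2), and the 3 pocket protein genes did not move alike. Rb1 and Rbl2 rose while Rbl1 fell. Rbl2, whose product binds E2F4 in resting cells, had a mean normalized count of 110 and a log2 fold change of 0.96 ± 0.29 (adjusted p = 0.0017). Rbl1, whose gene is itself an E2F target, had a mean of 119 and fell by 1.47 ± 0.27 on the log2 scale (adjusted p = 9.0e-08). The log2 fold change of Rb1 exceeded that of Rbl1 by 2.66 ± 0.36 (1.95 to 3.36) and that of Rbl2 by 0.23 ± 0.38 (-0.52 to 0.98), an interval that includes 0.

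Genes for the cyclins and CDKs that the inhibitors bind and for the E2F and DP factors are set beside all tested genes. Of all tested genes 12.5% fell and 7.45% rose, and neither list was tested against these shares. Of 13 cyclins and CDKs that the inhibitors bind, 12 were tested, 9 fell and 0 rose, with a median log2 fold change of -0.98. The smallest p was that of Ccnd1 (cyclin D1), which fell by 2.70 ± 0.17 on the log2 scale (adjusted p = 5.5e-52), followed by Cdk1, Ccna2, Ccne2, Ccnb2 and Ccnd2 with falls between 0.99 and 1.68. Of the direct targets of INK4 proteins, Cdk6 (named after its value was seen) fell by 0.96 ± 0.17 (adjusted p = 9.9e-08) and Cdk4 had a log2 fold change of -0.33 ± 0.15 (adjusted p = 0.078), and the difference between them was not tested. Cdk2, the kinase that CIP/KIP proteins restrain, stood at -0.35 ± 0.20 (adjusted p = 0.15). Among the 12 genes for the other pocket proteins and the E2F and DP factors, 9 fell and 1 rose (Rbl2), with a median of -0.89, and 7 fell with the housekeeping median as zero. E2f1, the activator that RB holds, fell by 1.24 ± 0.19 (adjusted p = 2.5e-10). E2f2 fell by 2.46 ± 0.58, E2f8 fell by 2.43 ± 0.33, and E2f7 and Tfdp1 fell as well. E2f4 at -0.33 ± 0.22 and E2f5 at 0.13 ± 0.20, the factors that p107 and p130 bind, did not pass (adjusted p of 0.24 and 0.70).

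**Figure D3:**
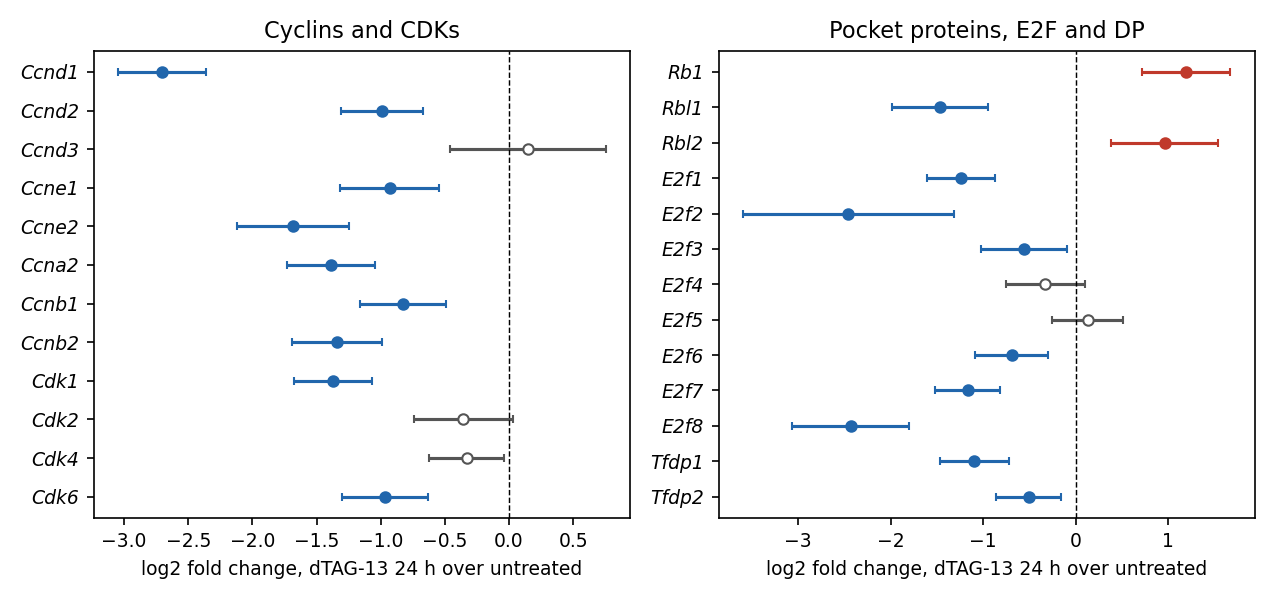
Change at 24 h of dTAG-13 relative to untreated cells, as log2 fold change with 95% intervals for the tested cyclins and CDKs (left) and for pocket protein, E2F and DP genes (right). Filled blue points fell, filled red points rose and open points did not pass an adjusted p under 0.05. On the left 9 of 12 genes fell, and on the right Rb1 and Rbl2 are the only genes that rose.

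Of 26 genes for regulators of the inhibitor genes, 2 rose, 4 fell and 20 did not pass, with a median of -0.12, which is near the shares over all tested genes (7.45% and 12.5%). Klf4, an activator of Cdkn1a, fell by 2.06 ± 0.19 (adjusted p = 8.4e-26). Myc, which represses Cdkn2b together with MIZ1, fell by 1.64 ± 0.23 (adjusted p = 3.2e-12). Zbtb17, the gene of MIZ1 and named after its value was seen, stood at 0.18 ± 0.18 (adjusted p = 0.51). Whether changes of these regulators bear on the inhibitor genes was not tested. Trp53, the gene of p53, fell by 0.76 ± 0.19 (adjusted p = 0.00019). Sp1 fell by 0.44 ± 0.15 (adjusted p = 0.015), but not when the housekeeping median was taken as zero. The FOXO factors Foxo4 and Foxo1, known activators of Cdkn1b, rose by 0.86 ± 0.24 and 0.47 ± 0.16 (adjusted p of 0.00078 and 0.010), while Foxo3, of the same family and named after its value was seen, stood at -0.02 ± 0.17 (adjusted p = 0.96). Mdm2, the ligase gene that ARF protein counters, had a log2 fold change of -0.12 ± 0.15 (adjusted p = 0.64), and Klf6 one of -0.24 ± 0.17 (adjusted p = 0.32).

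Polycomb subunits are known to silence the locus of Cdkn2a and Cdkn2b. Of 19 genes for Polycomb subunits and related enzymes, which include the opposing demethylases Kdm6a and Kdm6b, 4 fell and 0 rose by DESeq2. At an unadjusted p under 0.05, 3 were higher and 7 lower. Of all tested genes 12.5% fell and 7.45% rose, and the list was not tested against these shares. With the housekeeping median as zero, however, 0 of the 19 fell and 4 others rose. Phc2, Cbx6 and Ezh2 were among those that fell in the deposited test, by 0.52 to 0.54 with adjusted p from 0.0032 to 0.0097. Bmi1, the subunit whose loss is known to raise Cdkn2a in mouse fibroblasts, stood at 0.06 ± 0.17 (adjusted p = 0.87), and Suz12 at -0.22 ± 0.16 (adjusted p = 0.36). Beside them, Cdkn2a itself was at 0.00 and Cdkn2b at 1.11. The list for ubiquitin ligases that degrade the inhibitor proteins or read RB also holds Pcna and Psme3, which are not ligase parts. Of its 13 tested genes, 4 fell and 0 rose. At an unadjusted p under 0.05, 1 was higher and 5 lower, and this list was not tested against the same shares either. Dtl, which brings p21CIP1 to a ligase on PCNA, fell by 1.71 ± 0.21 (adjusted p = 2.3e-15), as did Pcna by 0.97 ± 0.18. The Skp2 cofactor gene Cks1b fell by 0.86 ± 0.17 and its relative Cks2 by 1.06 ± 0.36. Ddb1 and Rbx1 were at -0.03 ± 0.15 and 0.09 ± 0.16, and Skp2 had a mean normalized count of 0.293 and no adjusted p.

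The rises of Cdkn2b and Rb1 were set beside their chromosomal neighbours. Within 500 kb on either side of the body of Cdkn2b lay 25 other genes, of which 8 were tested and 0 rose or fell. The nearest of these was Cdkn2a on 1 side, and on the other Gm12610, which starts 110.8 kb away and had a mean normalized count of 3.52 and a log2 fold change of 0.22 ± 0.49 (adjusted p = 0.33). Mtap, the first well expressed gene beyond Cdkn2a, with a mean of 2152, stood at -0.12 ± 0.16 (adjusted p = 0.64). Of a list of 9 genes from the wider locus, 6 were tested and 0 passed by DESeq2, with 1 higher and 0 lower at an unadjusted p under 0.05. This was Klhl9 at 0.33 ± 0.16 (adjusted p = 0.12), which passed with an adjusted p of 0.0080 when the housekeeping median was taken as zero. Around Rb1, 7 of 22 genes were tested, and Fndc3a rose by 0.69 ± 0.18 (adjusted p = 0.00033) at a start distance of 615.8 kb while the overlapping Rcbtb2 fell. Itm2b, the next tested gene upstream of Rb1, starts 59.5 kb away and stood at 0.34 ± 0.16 (adjusted p = 0.098). Over all tested genes 19.9% had a called change, so with 8 and 7 tested neighbours these counts say little about either window.

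**Figure D4:**
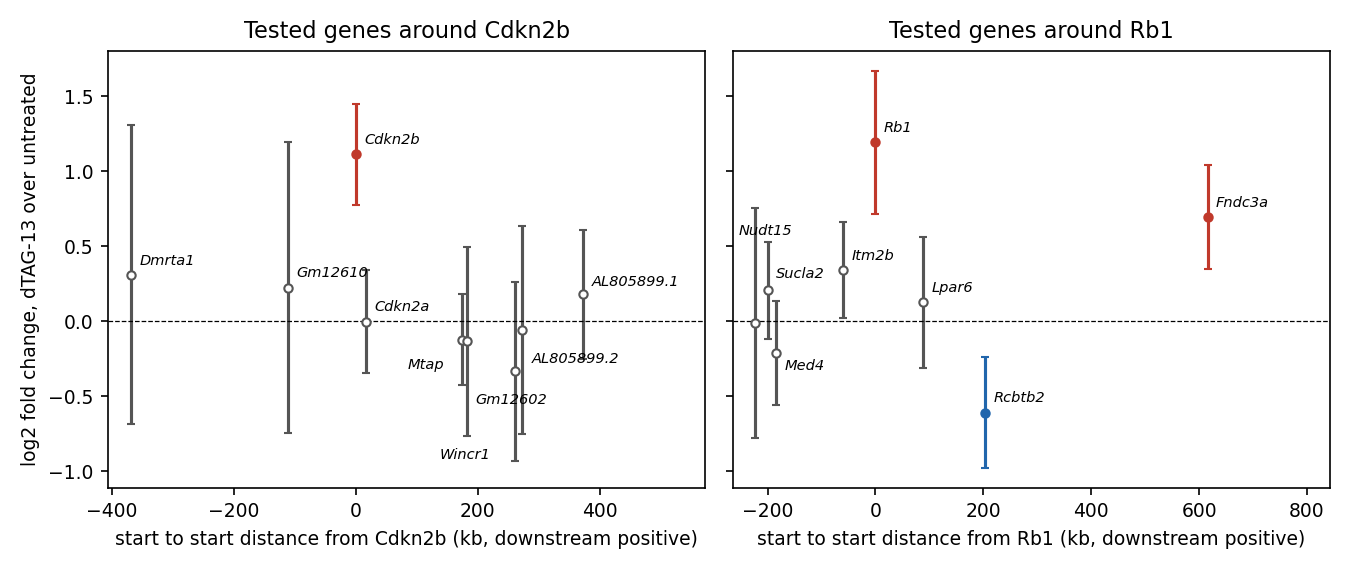
Log2 fold change with 95% interval of each tested gene within 500 kb of Cdkn2b (left) and Rb1 (right), against the distance between gene starts in kb (downstream positive). Filled red points rose, filled blue points fell and open points did not pass. Only Cdkn2b is filled on the left, while Rb1, Fndc3a (0.69) and Rcbtb2 (-0.61) are filled on the right.

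Reads of the 8 genes could be told from one another, since no pair of the 28 pairs of members shared a stretch of 25 bases in the annotated transcripts. Cdkn1a overlaps AC167363.2 on the opposite strand over 7.68% of its exonic bases, a gene with a mean normalized count of 0.724. The lengths of the captured parts are not settled by the sources, so mean counts were not compared between genes.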

How the data were processed

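The deposited signal is the normalized read count of a gene, averaged across both groups. The authors added ERCC spike-ins, used Trim Galore for trimming, STAR for alignment to mm10 (GRCm38) and featureCounts for counting, normalized to the spike-ins and tested with DESeq2. Versions are not given in the sources used here. The deposited log2 fold change was shrunken, for which the methods name apeglm, and the deposited score is its standard error. The deposited p-value is from a 2-sided test, and adjusted values equal Benjamini-Hochberg values over the 16773 tested genes within 1.8e-15. The lowest tested mean was 1.69. These columns of the authors' comparison are the only values of the table, and without columns per library no refit was possible.

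Intervals of 95% were made from the deposited standard errors, and levels per group were solved from mean and fold. Both rest on the shrunken fold, which draws the levels of both groups together. The deposited p-values differ from those of the shrunken fold over its standard error, so an interval and its p need not match. Intervals of differences between genes take the estimates as independent. Each such pair holds Cdkn2b or Rb1, the called members, and the intervals make no allowance for that choice. Positions came from GENCODE M21, which placed 16760 tested genes, and promoter windows from RefSeq (GRCm38.p6). Member genes and gene lists were chosen with earlier results of these data known, and support nothing on their own. All 8 genes were named, and of each list up to 6 genes per direction by smallest p among those that passed, up to 2 by highest mean among those that did not, and the nearest neighbours of called genes. Some genes that this rule names are not reported here. The 5 alternatives were a zero point at the median of genes with a mean of at least 100, a zero point at the housekeeping median, a threshold of 0.01, no filter on low means, and p-values from the shrunken fold change over its standard error. Moving the zero point was checked on simulated fold changes, and the Benjamini-Hochberg adjustment on a short list of p-values. The other steps were not checked on simulated data. Python 3.11.15, numpy 2.4.6, pandas 2.3.3, scipy 1.17.1 and matplotlib 3.10.9 were used.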

Additional observations from a re-analysis of the deposited data

How the results depend on the processing

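Cdkn2b and Rb1 rose under all 5 alternatives and none of the 8 genes fell under any of them. Both alternative zero points lay below 0 (-0.0468 and -0.183), so they raised every log2 fold change and did not put the rises to a test. The threshold of 0.01 and the lack of a filter reused the deposited p-values. These settings therefore say little about how firm the rises and the absence of falls are. With the housekeeping median as zero, Cdkn2c passed too, so that 3 of the 8 genes rose. Under that setting 26 genes of the pathway lists rose in place of 14, and 2264 of all tested genes rose and 1497 fell in place of 1250 and 2093. Of all tested genes, 733 rose at the threshold of 0.01 and 750 with p-values from the shrunken fold change. Of 151 genes of the report and lists, between 128 and 149 kept their call under each alternative and 0 reversed. The call of E2f3 was lost under each of them, and the cause was not tested. No paired analysis was possible because no column holds a single library, and for the same reason leaving out each replicate in turn was not run. An interval that includes 0 leaves room for changes up to its ends, and the depth of each library is unknown.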

Other observations

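Counts for targets of pathways that feed into the inhibitor genes are given beside 7.45% of all tested genes that rose and 12.5% that fell, and no list was tested against these shares. Of 25 p53 target genes other than Cdkn1a, 3 rose, 6 fell and 16 did not pass, with a median log2 fold change of -0.29. Btg2 (-1.55 ± 0.18, adjusted p = 1.8e-17) and Gadd45a (-1.09 ± 0.23, adjusted p = 8.0e-06) fell, both known as growth-restraining genes, while the death receptor gene Fas rose by 1.31 ± 0.32 (adjusted p = 6.1e-05) and Trp53inp1 by 0.90 ± 0.20 (adjusted p = 2.6e-05). Cdkn1a, at -0.15, and Ccng1, at 0.18 ± 0.15 (adjusted p = 0.41), passed in neither direction. With the housekeeping median as zero, 6 of the 25 rose and 6 fell.

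Of 19 TGF-beta target genes, 4 rose and 5 fell, with a median of 0.01. Ccn2 fell by 1.93 ± 0.31 (adjusted p = 2.4e-09), whereas Id2 and Id3, genes for inhibitors of basic helix-loop-helix factors, rose by 0.64 ± 0.15 and 0.61 ± 0.16 (adjusted p of 0.00012 and 0.00045). Cdkn2b, also a known TGF-beta target, rose by 1.11 beside them. Of 15 tested FOXO target genes, 4 rose and 3 fell, with a median of 0.22, and with the housekeeping median as zero 7 rose and 1 fell. Ccng2, the gene of a cyclin found in resting cells, rose by 1.01 ± 0.28 (adjusted p = 0.00049) and Sesn3 by 0.75 ± 0.22 (adjusted p = 0.0014), while the insulin receptor substrate gene Irs2 fell by 0.66 ± 0.23 (adjusted p = 0.0091), a call that was lost with the housekeeping median as zero.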
